A study of Gallus gallus with 24 samples.

Results

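The comparison is that of chicken blood cells cultured with a probiotic strain of *Bacillus subtilis* (BS) against the same birds' cells in medium alone. Its members are the 6 libraries whose treatment field reads BS and the 6 control libraries, joined in pairs by their biological replicate number, so 12 of the 24 libraries of the series. The other libraries are of the same 6 birds with a strain of *Bacillus velezensis* (BV) or with concanavalin A (conA, a plant lectin used as the positive control at 10 µg/ml). All groups are peripheral blood mononuclear cells (PBMCs) of Cobb500 broilers aged 4 to 6 weeks, cultured for 24 h without antibiotics in medium with chicken serum. Before these 24 h, the isolated cells had been kept until the next day in medium with penicillin and streptomycin. BS and BV were added alive, with 3 bacteria for each PBMC. Each library pools the technical duplicates of 1 bird, so the birds are the replicates.

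PBMCs of birds are a mixture of T cells, B cells, monocytes and dendritic cells, and preparations can also carry heterophils, the avian counterpart of neutrophils, and thrombocytes and erythrocytes, which keep a nucleus and make mRNA. Bacterial cell wall components are sensed by Toll-like receptors and related proteins, above all on myeloid cells. The usual transcriptional programme downstream of these receptors holds cytokines, chemokines that draw leukocytes to a site, colony stimulating factors, antimicrobial proteins, enzymes such as those of prostaglandin and itaconate synthesis, and the surface proteins with which antigen-presenting cells address T cells.

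The authors' counts summed to 12170873 to 30040702 reads on genes with BS and 20189066 to 29764271 in the control, and the lowest total, the BS library of bird 5, also had the fewest genes detected. T cell markers were abundant in all libraries. CD3D, CD3E, CD4, CD8A and CD28 summed to 37114 to 49768 normalized counts (counts divided by the size factor of the library) with BS and 36732 to 48876 in the control. Defining thrombocyte markers (ITGA2B, ITGB3, GP9 and GP1BB) varied far more between birds than between groups, from 588 to 44434 with BS and from 595 to 53448 in the control, with birds 1 and 2 far above the others in both groups. Libraries of birds 1 and 2 carry the numbers 29 to 36 and those of birds 3 to 6 the numbers 37 to 48 in the sample descriptions, whose meaning is not given. Each bird has both its libraries in 1 of these ranges, so a shift common to both libraries of a bird does not enter the comparison within birds. A BS effect that differs between the ranges does enter it. Within each bird the control library has a lower number than the BS library. In such bulk samples, more cells of a type and more RNA per cell cannot be told apart.

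With the bird as a block, 93 of 19424 genes tested (0.479%) differed between BS and control in edgeR's quasi-likelihood test at a Benjamini-Hochberg adjusted p under 0.05. Of these, 62 (0.319%) were higher with BS and 31 (0.16%) were lower. The 2 directions had different sizes. Genes that rose had a median log2 fold change (FC) of 1.07 and a median control mean of 84.0 normalized counts, and genes that fell had a median log2 FC of -0.37 and a median control mean of 3507. A log2 FC below 0.5 in size was found for 12 of the 62 that rose and for 20 of the 31 that fell, while 22 that rose (0.113%) and 2 that fell (0.0103%) passed 1.5, together 24 genes (0.124%). Counts depend on gene length as well as on level. The standard error of the log2 FC was smaller for the genes that fell (median 0.07) than for those that rose (median 0.19). It was derived from the log2 FC and the F statistic of the test. Among genes that passed, it therefore follows the size of the change and is no separate measure of precision. Over all tested genes the median log2 FC was -0.0031, with 49.4% of them above 0.

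**Figure D1:**
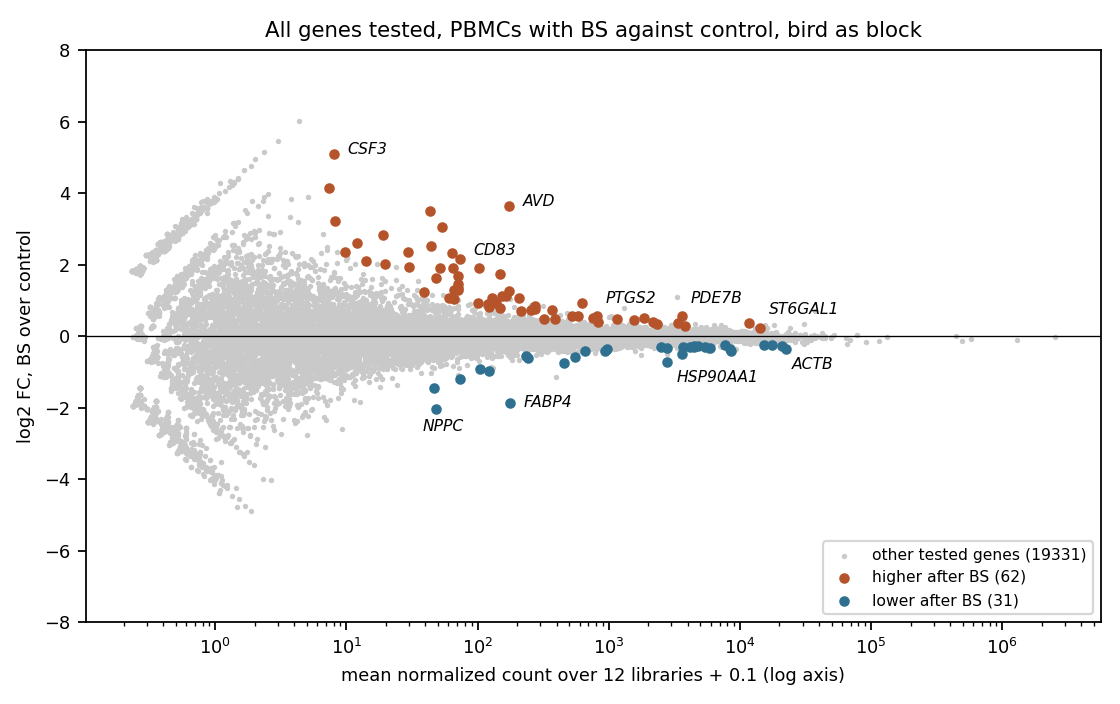
Log2 FC of BS over control for each of the 19424 genes tested, against the mean normalized count over the 12 libraries plus 0.1 on a log axis. The 62 genes that rose (orange) lie mostly at lower counts and larger changes than the 31 genes that fell (blue).

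All 6 birds went the same way for 85 of the 93 genes, of which 56 rose and 29 fell. Among all tested genes 980 (5.05%) moved in 1 direction in all 6 birds, 520 of them up (2.68%) and 460 down (2.37%). The values of the groups did not overlap for 11 of the 93 genes and for 26 of all genes tested (0.134%). The calls rested on the pairing: without the bird in the model, 0 genes passed, with 532 genes at an unadjusted p under 0.05. With the bird in the model, 1688 genes had an unadjusted p under 0.05 and DESeq2 called 135 genes, 86 of the 93 among them. When 1 bird was left out in turn, 33 of the 93 genes passed in all 6 fits. All 93 kept their direction in all of these fits. They were chosen with all 6 birds, and 85 moved in 1 direction in each bird, so this was nearly fixed and is no further test. The egg white biotin binder AVD (log2 FC 3.64, adjusted p = 2.06e-05), IL8L1, CD72, EPS8L3, ACTA2, IL1R2, LAMP3, CD72AG, DENND5B, ENSGALG00000045596 and ENSGALG00000038584 also stand in the study's own listing for BS, which required a fold change beyond a set size as well as an adjusted p. No such size was required of the 93 genes, 82 of which lie outside that listing. Size was not the only difference. Of the 24 genes that passed both an adjusted p under 0.05 and 1.5 here, CSF3, IL1B, CD83, ACOD1, IL8, CCL5 and MMP9 are among those not listed. Of these, the paper does report IL1B, IL8 and CCL5 as higher with BS, in tests of each gene alone on normalized counts. The test behind the listing differed as well, since the paper used the Wald test of DESeq2 and its methods name no bird term for it. DENND5B (log2 FC 1.05), CD72AG (1.35) and ENSGALG00000038584 (-1.44) did not reach 1.5 in size here, and 1 listed gene, ENSGALG00000023472, did not pass (edgeR adjusted p = 0.0987).

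Secreted signals of inflammation were among the largest increases. Of 33 tested entries of a list of cytokines 2 rose (IL1B and CSF3) and 0 fell (median log2 FC 0.23). Of 14 chemokine entries 5 rose and 0 fell (median 1.18, against -0.0031 over all genes). Over all tested genes 0.319% rose and 0.16% fell, shares that belong beside each list count given here. The lists were chosen with earlier results of these data known, so such counts describe the lists only. IL1B, a central inflammatory cytokine, was found at 18.1 to 90.6 normalized counts with BS (median 40.3), against 0.822 to 21 in the control (median 9.16). Its increase was seen in all 6 birds, although the ranges of the groups overlapped a little (log2 FC 2.36 ± 0.35 SE, edgeR adjusted p = 0.0015). CSF3, which encodes the granulocyte colony stimulating factor, had 79 reads with BS and 2 reads in the control when each group was summed, a ratio of 43.5 with an exact 95% counting interval of 11.7 to 366. All BS libraries had 4.01 or more normalized counts, and 4 of the 6 control libraries had none, so the groups did not overlap (log2 FC 5.10 ± 0.85 SE, edgeR adjusted p = 0.00638). IL17C, a cytokine of epithelial and myeloid defence that is not on the list, had 1.00 to 35.4 normalized counts with BS (median 11.3), against 0 to 3.01 in the control (median 1.47), a log2 FC of 3.22 ± 0.62 (SE, edgeR adjusted p = 0.013). Each bird had more with BS, but the BS library of bird 6 lay within the control range. This gene was thinly covered, with 78 reads with BS and 9 in the control. IL16 had a log2 FC of -0.24 (edgeR adjusted p = 0.0657) and CSF1 one of 0.72 (adjusted p = 0.227), and neither passed. IL16 was lower and CSF1 higher with BS in 6 of 6 birds. The paper does report IL16 as lower with BS, in a test of that gene alone.

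The chemokines that rose were IL8L1 and IL8, which attract heterophils, and CCL5 and both CCL4 entries, which attract T cells and monocytes. CCL5 was measured at 46.2 to 536 normalized counts with BS (median 181), against 7.27 to 202 in the control (median 50.2). All birds had more CCL5 with BS (log2 FC 1.75 ± 0.21 SE, edgeR adjusted p = 0.000321), and the largest ratio was that of bird 3, whose control was the lowest (146 with BS and 7.27 in the control). IL8 had 44.1 to 289.8 normalized counts with BS (median 165), against 9.76 to 87.9 in the control (median 24.2), and the ranges overlapped (log2 FC 1.90 ± 0.31 SE, edgeR adjusted p = 0.0174). The CCL4 entry ENSGALG00000032717 had 132 to 607 normalized counts with BS (median 247) and 29.3 to 348 in the control (median 105), a log2 FC of 1.07 ± 0.16 (SE, edgeR adjusted p = 0.0019). The other CCL4 entry, ENSGALG00000034478, had 10 to 113 normalized counts with BS (median 14.1) and 0 to 16.5 in the control (median 2.05), a log2 FC of 2.82 ± 0.46 (SE, edgeR adjusted p = 0.00211). Reads of entries with the same symbol may be split between them by the counting. Summed over both entries, CCL4 had 312 ± 213 normalized counts with BS and 142 ± 118 in the control (SD, n = 6 each). Each entry rose in all 6 birds, so their sum had to rise in each bird too and is no further test. With 1 bird left out, IL1B, IL8L1, CCL5 and the first CCL4 entry passed each time. CSF3 missed the threshold without bird 5 (adjusted p = 0.0517), the second CCL4 entry without bird 1 (0.0982), IL17C without bird 1 or 5 (0.25 and 0.0663) and IL8 without bird 2, 5 or 6 (0.0671, 0.0549 and 0.0636).

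**Figure D2:**
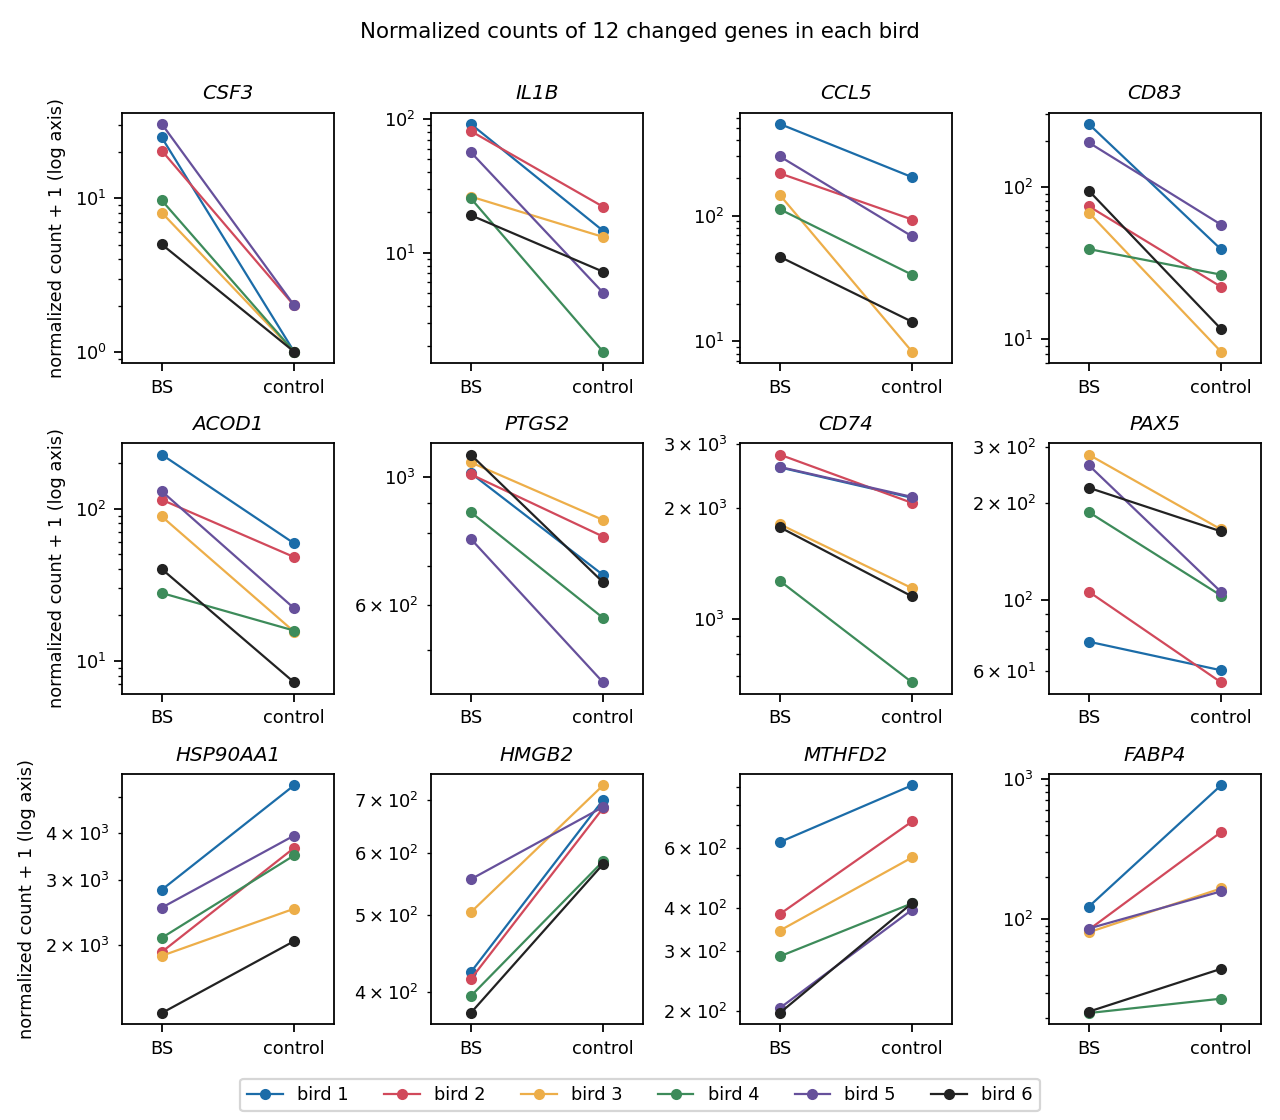
Normalized counts plus 1 of 12 changed genes on log axes, each line joining the BS library (left) and the control library (right) of 1 bird. The upper 2 rows show genes that rose and the lowest row genes that fell, and in each panel the lines of all 6 birds run in 1 direction.

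Single genes of defence and of lipid mediator synthesis rose as well. Of 22 tested entries for antimicrobial and secreted defence proteins 3 rose and 0 fell, beside 0.319% and 0.16% of all tested genes. The list had a median log2 FC of 0.38, and the entries that rose were AVD, ACOD1 and MMP9. AVD among them binds biotin and is no enzyme. ACOD1, the mitochondrial enzyme that makes itaconate, had 26.9 to 226 normalized counts with BS (median 101), against 6.21 to 58.1 in the control (median 18), a log2 FC of 1.90 ± 0.24 (SE, edgeR adjusted p = 0.000353). The ranges overlapped, with bird 4 lowest among the BS libraries and bird 1 highest in both groups. MMP9, a gelatinase stored and secreted by myeloid cells, had 40.1 to 87.4 normalized counts with BS (median 74.4), against 6.21 to 50.1 in the control (median 22.1). Its lowest BS value, that of bird 6, lay below the highest control value, that of bird 2 (log2 FC 1.63 ± 0.25 SE, edgeR adjusted p = 0.00263). PTGS2, the inducible cyclooxygenase of prostaglandin synthesis, had 779.6 to 1092 normalized counts with BS (median 1011), against 439 to 840.5 in the control (median 665). It was well covered and moved little, but in each bird (log2 FC 0.57 ± 0.08 SE, edgeR adjusted p = 0.0015). Among the other 19 tested entries of the prostaglandin and leukotriene list 0 passed, and among the 33 of the nitric oxide, itaconate and oxidant list ACOD1 alone passed, while NOS2, the inducible nitric oxide synthase, had a log2 FC of 0.53 (adjusted p = 0.173).

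ACSL1, which activates long-chain fatty acids with coenzyme A, had 68.2 to 408 normalized counts with BS (median 202), against 31.1 to 203 in the control (median 102), a log2 FC of 1.13 ± 0.16 (SE, edgeR adjusted p = 0.00106). GLUL, the glutamine synthetase, had 3.17 to 62.8 normalized counts with BS (median 17.3), against 1.21 to 9.06 in the control (median 5.44), a log2 FC of 2.10 ± 0.42 (SE, edgeR adjusted p = 0.0174). Both were higher with BS in 6 of 6 birds with overlapping ranges. STEAP4, a reductase of iron and copper ions, had 2.01 to 40.6 normalized counts with BS (median 11.3), with 0 in 5 of the 6 control libraries and 3.29 in that of bird 4. The BS value of bird 4 was 3.17, so that 5 of 6 birds had more STEAP4 with BS (log2 FC 4.13 ± 0.91 SE, edgeR adjusted p = 0.0478). F10, the precursor of coagulation factor X, had 173 to 1613 normalized counts with BS (median 199), against 116 to 999.96 in the control (median 130.5), with birds 1 and 2 far above the others in both groups (log2 FC 0.58 ± 0.10 SE, edgeR adjusted p = 0.00538). ACOD1, MMP9, PTGS2 and ACSL1 passed in all 6 fits without 1 bird. F10 did not pass without bird 1 (adjusted p = 0.0765), GLUL without bird 1, 2 or 5 (0.132, 0.0614 and 0.159), and STEAP4 passed only without bird 4, with adjusted p up to 0.463 otherwise. Its log2 FC was 3.18 without bird 1 and 6.93 without bird 4, where all control libraries are at 0 and the fitted value is no bound. Among heterophil markers MMP9 rose and the other 12 tested entries did not pass, with a sum over the list of 1082 to 2446 with BS and 1047 to 2141 in the control that was higher with BS in 6 of 6 birds. The sum of the defining markers CSF3R and MMP9 was 97.3 to 467 with BS and 113 to 494 in the control, higher in 3 of 6 birds, and CSF3R had a log2 FC of -0.14 (adjusted p = 0.939). The part of heterophil RNA in the increases was not tested.

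A few genes of antigen-presenting cells rose, while most entries of their lists did not pass. Of 17 tested entries of a dendritic cell maturation list 3 rose (CD83, LAMP3 and ICOSLG) and 0 fell, with a median log2 FC of 0.11. Of 20 entries for MHC and antigen presentation CD74 rose and 0 fell (median 0.13). Over all tested genes 0.319% rose and 0.16% fell. CD83, a marker of mature dendritic cells that also appears on activated lymphocytes, had 38 to 257 normalized counts with BS (median 83.4), against 7.27 to 55.4 in the control (median 23.3), a log2 FC of 2.15 ± 0.26 (SE, edgeR adjusted p = 0.000318). The smallest change was that of bird 4, with 38 with BS and 25.5 in the control. ICOSLG, the ligand of the T cell costimulator ICOS, had 53.8 to 148 normalized counts with BS (median 87.9), against 20.6 to 67.4 in the control (median 43.7), a log2 FC of 1.03 ± 0.22 (SE, edgeR adjusted p = 0.0314). Bird 5 was highest in both groups and the ranges overlapped. CD74, the invariant chain that escorts MHC class II molecules, had 1269 to 2799.8 normalized counts with BS (median 2197), against 671 to 2147 in the control (median 1639), with an increase in each bird (log2 FC 0.51 ± 0.08 SE, edgeR adjusted p = 0.00263). Outside both lists, IFI30, a lysosomal thiol reductase that prepares antigens for MHC class II, had 1519 to 4964 normalized counts with BS (median 2115), against 1272 to 3493 in the control (median 1475), a log2 FC of 0.39 ± 0.07 (SE, edgeR adjusted p = 0.00575). Bird 1 was highest in both groups and the ranges overlapped. CD83, CD74 and IFI30 passed without any 1 bird, and ICOSLG passed only without bird 4, with adjusted p up to 0.122 otherwise. CD40, another costimulatory receptor on the maturation list, had a log2 FC of 0.42 (adjusted p = 0.362), and BLB2, an MHC class II beta chain, one of 0.35 (adjusted p = 0.315).

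Transcription factors of B cells rose together with the CD72 lectins. Of 23 tested B cell marker entries 5 rose (CD72, CD72AG, EBF1, PAX5 and BCL11A) and 0 fell, with a median log2 FC of 0.33. Over all tested genes 0.319% rose and 0.16% fell. PAX5, which maintains B cell identity, had 72.9 to 283 normalized counts with BS (median 205), against 54.1 to 165 in the control (median 103), a log2 FC of 0.79 ± 0.15 (SE, edgeR adjusted p = 0.0146). EBF1, an early B lineage factor, had 22.7 to 114 normalized counts with BS (median 45.8), against 10 to 37.5 in the control (median 21.8), a log2 FC of 1.23 ± 0.26 (SE, edgeR adjusted p = 0.0342). BCL11A, a zinc finger factor of lymphoid and dendritic precursors, had 217 to 416 normalized counts with BS (median 321), against 133 to 263 in the control (median 187), a log2 FC of 0.72 ± 0.12 (SE, edgeR adjusted p = 0.00616). Each rose in all 6 birds, with overlapping ranges. CD79B, a signalling chain of the B cell receptor, did not pass, at 906 on average with BS and 822 in the control (log2 FC 0.13, adjusted p = 0.764). The whole list summed to 17257 to 20347 normalized counts with BS and 17626 to 20279 in the control and was higher with BS in 3 of 6 birds. PAX5, EBF1 and CD79B together gave 807 to 1509 with BS and 663 to 1128 in the control, higher in 6 of 6. PAX5 and EBF1 were called in this same comparison, so the sum of the 3 is not independent of their calls. CD79B by itself was higher with BS in 4 of 6 birds. The part of B cell numbers in these increases was not tested. CD72 and BCL11A passed in all 6 fits without 1 bird, CD72AG not without bird 1, 2, 3 or 5 (adjusted p = 0.0882, 0.054, 0.0607 and 0.115), PAX5 not without bird 2, 4 or 5 (0.064, 0.076 and 0.0674), and EBF1 only without bird 5, with adjusted p up to 0.176 otherwise.

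On the side of T cells the changes were small and lay in well covered genes. Of 20 tested entries of T cell activation 2 rose (TNFSF8 and IL2RA), and of 28 T cell marker entries 0 passed (median log2 FC 0.07 for both lists). Over all tested genes 0.479% passed. IL2RA, a receptor chain that marks activated and regulatory T cells, had 748 to 1095 normalized counts with BS (median 877), against 537 to 914 in the control (median 573), a log2 FC of 0.50 ± 0.09 (SE, edgeR adjusted p = 0.00958). TNFSF8, the ligand of CD30, had 1214 to 2649 normalized counts with BS (median 1705), against 838 to 1889 in the control (median 1238), a log2 FC of 0.46 ± 0.07 (SE, edgeR adjusted p = 0.00331). STAT4, which carries cytokine signals towards T helper differentiation, had 3150.2 to 5223 normalized counts with BS (median 3521), against 2377 to 3765 in the control (median 2785), a log2 FC of 0.36 ± 0.07 (SE, edgeR adjusted p = 0.0169). All 3 were higher with BS in 6 of 6 birds, with overlapping ranges. TNFSF8 passed without any 1 bird, IL2RA not without bird 1 or 6 (adjusted p = 0.0612 and 0.0736), and STAT4 not without bird 1, 2, 5 or 6, with adjusted p up to 0.117. CD4 had a log2 FC of 0.19 (adjusted p = 0.253) and CD28 one of 0.17 (adjusted p = 0.428). In tests of each gene alone the paper reports CD4 and CD25 (IL2RA) as higher with BS, and CD28 as a tendency. The sum over CD3D, CD3E, CD4, CD8A and CD28 was higher with BS in 5 of 6 birds with a ratio of the means of 1.01. All 28 T cell marker entries together summed to 158804 to 199693 with BS and 156024 to 204364 in the control, higher with BS in 4 of 6 birds.

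A pair of erythrocyte genes rose. HBA1, an alpha globin, had 96.3 to 2250.2 normalized counts with BS (median 493), against 97.6 to 904 in the control (median 303), a log2 FC of 0.94 ± 0.14 (SE, edgeR adjusted p = 0.00348). It was higher with BS in 5 of 6 birds and level in bird 6, with 96.3 with BS and 97.6 in the control. SLC4A1, the anion exchanger of the erythrocyte membrane, had 12 to 437 normalized counts with BS (median 132), against 11.5 to 190.2 in the control (median 85.2), a log2 FC of 0.92 ± 0.19 (SE, edgeR adjusted p = 0.0254). Over 19 tested erythrocyte entries 2 rose and 0 fell, with a median log2 FC of 0.46, beside 0.319% and 0.16% of all tested genes. Summed over 7 globin genes the normalized counts were 3015 ± 2718 with BS and 1497 ± 946 in the control, higher in 6 of 6 birds (SD, n = 6 each, exact permutation within birds, two-sided p = 0.03125, the lowest possible with 6 birds). HBA1, called in this same comparison, is part of the sum, with means of 857 with BS and 397 in the control. The sum is thus not independent of that call. The share of the globin genes in all counts was small, at 0.00124% to 0.0326% with BS and 0.0011% to 0.0126% in the control (adjusted p = 0.156 over 5 library measures, exact permutation test). Its unadjusted p by this test was 0.03125, the same as that of the sum, whose p is not adjusted. Total counts, genes detected, the share of the 5 most counted genes and the mitochondrial share did not pass, with two-sided exact permutation p from 0.3125 to 0.719. HBA1 passed without any 1 bird, and SLC4A1 passed only without bird 1 or 6, with adjusted p up to 0.165. All 19 erythrocyte entries together summed to 17982 to 26532 with BS and 18134 to 28746 in the control, higher with BS in 3 of 6 birds, and 7 of the 19 had a log2 FC below 0. Most of this sum was EPB41, a membrane skeleton protein also made in other cells (log2 FC 0.00, adjusted p = 0.998). The part of erythrocyte RNA in other increases was not tested.

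Other genes that rose belong to no single pathway. PDE7B, a phosphodiesterase that breaks down cyclic AMP, had 3463 to 5449 normalized counts with BS (median 4069), against 1946 to 3619 in the control (median 3089), a log2 FC of 0.56 ± 0.07 (SE, edgeR adjusted p = 0.000353). SLC22A3, a transporter of organic cations, had 1064 to 1715 normalized counts with BS (median 1282), against 734 to 1277 in the control (median 931), a log2 FC of 0.49 ± 0.07 (SE, edgeR adjusted p = 0.00192). Both were higher in each bird, with overlapping ranges, and passed without any 1 bird. MARCKSL1, a protein of the actin cortex, had 46.5 to 157 normalized counts with BS (median 105), against 14.1 to 64.9 in the control (median 41.1), a log2 FC of 1.3 ± 0.25 (SE, edgeR adjusted p = 0.0161). Bird 5, with 157 with BS and 14.1 in the control, had by far the largest ratio, and without bird 6 the gene did not pass (adjusted p = 0.0635). USP35, a deubiquitinase, had 10.3 to 72.1 normalized counts with BS (median 24.6), against 4.93 to 14.1 in the control (median 6.90), a log2 FC of 2.02 ± 0.37 (SE, edgeR adjusted p = 0.00843), and did not pass without bird 1, 5 or 6 (0.0882, 0.0663 and 0.0636). Also higher were PROM1 (log2 FC 0.94, adjusted p = 0.00843), ADAMTSL2 (0.56, edgeR adjusted p = 0.00783), DPP10 (0.77, edgeR adjusted p = 0.0146), RNASET2 (0.49, edgeR adjusted p = 0.0322), UPB1 (0.48, edgeR adjusted p = 0.0402) and ANKRD29 (2.36, edgeR adjusted p = 0.0488). Some of the most counted genes that rose had small changes: NDST4, a heparan sulphate sulphotransferase (0.37, edgeR adjusted p = 0.00397), SLC26A4, an anion exchanger (0.30, edgeR adjusted p = 0.0314), and ST6GAL1, a sialyltransferase (0.24, edgeR adjusted p = 0.0385). Of these 9 genes NDST4 passed in all 6 fits without 1 bird, PROM1 and ADAMTSL2 in 5 (not without bird 4, adjusted p = 0.0527 and 0.0573), DPP10 in 4 (up to 0.475 without bird 1), and RNASET2, UPB1, ANKRD29, SLC26A4 and ST6GAL1 in 0 or 1, with adjusted p up to 0.144, 0.221, 0.259, 0.17 and 0.255 in that order.

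Among the genes that fell, the cytosolic chaperone HSP90AA1 had the lowest adjusted p. Of 35 tested chaperone entries 2 fell (HSP90AA1 and HSPA8) and 0 rose, beside 0.16% and 0.319% of all tested genes. Among the 35 entries 30 had a log2 FC below 0 (median -0.08), while 49.4% of all tested genes were above 0. Genes of 1 list may move together, so this count of signs is no test. HSP90AA1, the stress-inducible form of the HSP90 chaperone, had 1315 to 2821 normalized counts with BS (median 2007), against 2053 to 5387 in the control (median 3573), a log2 FC of -0.72 ± 0.07 (SE, edgeR adjusted p = 2.06e-05). HSPA8, a chaperone made also in unstressed cells, had 2366 to 3673 normalized counts with BS (median 3071), against 3223 to 5076 in the control (median 4117), a log2 FC of -0.49 ± 0.08 (SE, edgeR adjusted p = 0.00958). Both were lower with BS in 6 of 6 birds with overlapping ranges, and HSPA8 did not pass without bird 5 (adjusted p = 0.0549). HSPD1, the mitochondrial chaperonin, had a log2 FC of -0.35 (adjusted p = 0.0523). Summed with the related gene HSP90AB1, HSP90AA1 gave 2857 ± 606 with BS and 4362 ± 1296 in the control, lower in 6 of 6 birds (SD, n = 6 each). HSP90AA1 alone averaged 2092 with BS and 3507 in the control. Most of the sum was thus this gene, and the sum is no separate test.

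Some genes for proteins of chromatin and nucleoli fell by small amounts with little spread between birds. Of 15 tested HMG and histone entries 3 fell (HMGB2, HMGN4 and HMGN1) and 0 rose, with a median log2 FC of -0.10. Over all tested genes 0.16% fell and 0.319% rose. HMGB2, a DNA-bending protein, had 375 to 554 normalized counts with BS (median 418), against 579 to 729 in the control (median 683), a log2 FC of -0.58 ± 0.09 (SE, edgeR adjusted p = 0.0019). HMGN4, a nucleosome-binding protein, had 4966 to 5517 normalized counts with BS (median 5173), against 5629.6 to 7335 in the control (median 6638), a log2 FC of -0.34 ± 0.06 (SE, edgeR adjusted p = 0.00779). For HMGN1, a close relative, the values were 2112 to 2381 normalized counts with BS (median 2233), against 2425 to 3046 in the control (median 2756), a log2 FC of -0.29 ± 0.06 (SE, edgeR adjusted p = 0.0314). In all 3 of these genes the highest BS library lay below the lowest control library. The sum of HMGN1 and HMGN4 was 7478 ± 135 with BS and 9393 ± 619 in the control (SD, n = 6 each). Both genes fell in each bird, so their sum had to fall in each bird too and is no further test. NPM1, a nucleolar chaperone of ribosome assembly, also did not overlap, with 6355 to 7902 normalized counts with BS (median 7626), against 8665 to 10022 in the control (median 9636), a log2 FC of -0.34 ± 0.05 (SE, edgeR adjusted p = 0.00211). On the list of MYC targets and ribosome biogenesis NPM1 and ODC1 fell and the other 38 tested entries did not pass. HMGB2 and NPM1 passed without any 1 bird, HMGN4 not without bird 4 or 5 (adjusted p = 0.0844 and 0.0503), and HMGN1 in none of the 6 fits, with adjusted p up to 0.168.

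Among genes of amino acid and one-carbon metabolism MTHFD2, ATF4 and ODC1 fell. MTHFD2, a mitochondrial enzyme of the folate cycle that is induced under amino acid stress, had 197 to 621 normalized counts with BS (median 315), against 395 to 911 in the control (median 487), a log2 FC of -0.76 ± 0.10 (SE, edgeR adjusted p = 0.000529). Its fall was seen in each bird and passed without any 1 bird. ATF4, the transcription factor of the amino acid stress response, had 3342 to 5198 normalized counts with BS (median 3935), against 3973 to 6121 in the control (median 4735), a log2 FC of -0.28 ± 0.06 (SE, edgeR adjusted p = 0.0202). ODC1, which starts polyamine synthesis, had 617 to 1212 normalized counts with BS (median 761), against 718 to 1354 in the control (median 1055), a log2 FC of -0.41 ± 0.08 (SE, edgeR adjusted p = 0.0225). All 6 birds had less of both with BS, bird 1 was highest in both groups and the ranges overlapped. ATF4 passed in none of the 6 fits without 1 bird (adjusted p up to 0.131) and ODC1 in 2 (up to 0.155). Of 29 tested entries for tRNA synthetases and amino acid stress MTHFD2 and ATF4 fell and 0 rose, beside 0.16% and 0.319% of all tested genes. Among the 29 entries 23 had a log2 FC below 0 (median -0.15), while 49.4% of all tested genes were above 0. This count of signs is no test. EIF5, a translation initiation factor, was lower at a log2 FC of -0.26 (adjusted p = 0.0493), which passed in none of the fits without 1 bird (up to 0.259).

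Cytoskeletal genes moved in both directions. Of 35 tested entries 3 rose (ACTA2, EPS8L3 and MARCKSL1) and 2 fell (ACTB and VCL), with a median log2 FC of -0.17. Over all tested genes 0.319% rose and 0.16% fell. ACTB, the beta actin often used as a reference gene, had 16232 to 24634 normalized counts with BS (median 17298), against 18860.1 to 31978 in the control (median 21112), a log2 FC of -0.29 ± 0.05 (SE, edgeR adjusted p = 0.00837). VCL, which links integrins to actin, had 8187 to 29795 normalized counts with BS (median 9808), against 10546 to 32533 in the control (median 12247), with birds 1 and 2 highest in both groups (log2 FC -0.25 ± 0.05 SE, edgeR adjusted p = 0.03). Outside the list, SPTAN1, the alpha spectrin of the membrane skeleton, had 16038 to 21799 normalized counts with BS (median 19987), against 20788 to 27803 in the control (median 25717), a log2 FC of -0.36 ± 0.05 (SE, edgeR adjusted p = 0.00058). Each of these was lower in 6 of 6 birds with overlapping ranges. SPTAN1 passed without any 1 bird, EPS8L3 not without bird 2 (adjusted p = 0.054), ACTB not without bird 1, 2 or 4 (adjusted p = 0.0645, 0.0691 and 0.101) and VCL only without bird 1, with adjusted p up to 0.159. The sum of the related actin genes ACTB and ACTG1 was 79964 ± 3770 with BS and 94252 ± 11920 in the control, lower in 6 of 6 birds (SD, n = 6 each, exact paired permutation test, p = 0.03125). ACTB, called in this same comparison, is part of the sum, with means of 18953.5 with BS and 23239.3 in the control. This sum is thus not independent of that call. VIL1, an actin bundling protein, fell too (log2 FC -0.61, adjusted p = 0.0262), and passed only without bird 4 among the fits without 1 bird (up to 0.175).

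The largest decreases among named genes were those of less counted genes. FABP4, a fatty acid carrier of macrophages and fat cells, had 20.6 to 122 normalized counts with BS (median 81.6), against 26.3 to 895 in the control (median 161), a log2 FC of -1.87 ± 0.29 (SE, edgeR adjusted p = 0.013). Birds 1 and 2 set the upper end in the control, with 895 and 416, and had 122 and 83.3 with BS. In birds 3 to 6 alone the log2 FC was -0.90 with an adjusted p of 0.371, and without bird 2 the adjusted p was 0.0614. NPPC, the precursor of C-type natriuretic peptide, had 0 to 52 normalized counts with BS (median 12.4), against 0 to 328 in the control (median 37.8), a log2 FC of -2.04 ± 0.41 (SE, edgeR adjusted p = 0.0356). It was lower with BS in 4 birds, at 0 in both libraries of bird 3 and higher in bird 6. GPC5, a cell surface heparan sulphate proteoglycan, had 39.1 to 117 normalized counts with BS (median 83.2), against 110.2 to 268 in the control (median 139), a log2 FC of -0.98 ± 0.17 (SE, edgeR adjusted p = 0.00515). ITGA7, an integrin chain, had 8.03 to 127 normalized counts with BS (median 26), against 14.2 to 430.2 in the control (median 32.5), with bird 1 highest in both groups (log2 FC -1.21 ± 0.24 SE, edgeR adjusted p = 0.0187). GPC5 did not pass without bird 4 (adjusted p = 0.0636), ITGA7 not without bird 1 or 2 (0.719 and 0.0807), and NPPC not without bird 1, 2, 4 or 5, with adjusted p up to 0.601. Without bird 1 the log2 FC was -0.70 for ITGA7 and -1.32 for NPPC, and in birds 3 to 6 alone it was -0.44 and -0.95. On the PPAR and fatty acid list FABP4 fell, ACSL1 rose and the other 31 tested entries did not pass, among them FABP5 with a log2 FC of -0.87 (adjusted p = 0.177).

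A further set of well covered genes fell by less than 0.5 on the log2 scale. They were RSRP1 (log2 FC -0.41, adjusted p = 0.00192), BTBD6 (-0.37, edgeR adjusted p = 0.0378), TOB2, a brake on proliferation (-0.33, edgeR adjusted p = 0.0273), BSG, a surface glycoprotein that escorts lactate transporters (-0.31, edgeR adjusted p = 0.0146), KLF6, an immediate early zinc finger factor (-0.30, edgeR adjusted p = 0.027), YWHAH, an adaptor of phosphorylated proteins (-0.29, edgeR adjusted p = 0.0161), TSC22D1 (-0.29, edgeR adjusted p = 0.0202) and RNF213 (-0.24, edgeR adjusted p = 0.0378). Each was lower with BS in 6 of 6 birds. RSRP1 passed without any 1 bird and the other 7 in at most 2 of the 6 fits, with adjusted p up to 0.249, 0.171, 0.117, 0.162, 0.129, 0.159 and 0.249 in that order. CFAP45, a protein of cilia, had a larger log2 FC of -0.91 (adjusted p = 0.0478), was lower in 5 of 6 birds and passed only without bird 3, with adjusted p up to 0.512 otherwise. KLF6 was the only 1 of 28 tested immediate early genes that passed, and FOS had a log2 FC of -1.14 (adjusted p = 0.305).

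The files name 18 of the 93 genes only by their Ensembl ID, 14 of which rose and 4 fell. ENSGALG00000045596 had 43.5 to 139 normalized counts with BS (median 80.3), against 7.99 to 36.8 in the control (median 20.3), without overlap (log2 FC 1.89 ± 0.23 SE, edgeR adjusted p = 0.000321). ENSGALG00000047627 rose by little from bird to bird, while its level varied widely between birds, with 151 to 2102 normalized counts with BS (median 836), against 116 to 1595 in the control (median 634), a log2 FC of 0.40 ± 0.08 (SE, edgeR adjusted p = 0.0258). It passed only without bird 3 in the fits without 1 bird, with adjusted p up to 0.132. Of those that fell, ENSGALG00000038584 did not overlap, with 14 to 35.4 normalized counts with BS (median 24.5), against 52.1 to 85.5 in the control (median 69.2), a log2 FC of -1.44 ± 0.23 (SE, edgeR adjusted p = 0.00382). ENSGALG00000006723 had 485 to 661 normalized counts with BS (median 551), against 603 to 978 in the control (median 718), a log2 FC of -0.43 ± 0.09 (SE, edgeR adjusted p = 0.0376), and passed only without bird 3, with adjusted p up to 0.255.

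Across 37 gene lists with 1012 different tested entries, 44 of the 93 changed genes had a place and 49 had none. On 14 lists 0 entries passed, beside 0.479% of all tested genes. At that share most lists of these sizes would hold 0, so these counts do not show that the listed genes did not respond. Among them were 34 entries for Toll-like receptors and pathogen sensing (median log2 FC -0.01), 24 for NF-kB subunits and feedback (0.09), 34 of the interferon response (-0.03), 31 monocyte and macrophage markers (-0.13), 13 of cytotoxic granules (0.03) and 30 of cell death (0.07). TLR15, a Toll-like receptor of birds, had a log2 FC of 1.41 (adjusted p = 0.19), TNFAIP3, a feedback inhibitor of NF-kB, 0.33 (edgeR adjusted p = 0.488), and RSAD2, an antiviral interferon target, -0.21 (edgeR adjusted p = 0.411). The lists of replication and mitosis (49 entries), glycolysis and the pentose phosphate pathway (29), oxidative phosphorylation (56), cytosolic ribosomal proteins (62) and cholesterol synthesis (32) had 0 changed entries and medians between -0.04 and -0.08. Of the 62 ribosomal entries, 56 had a log2 FC below 0, while 49.4% of all tested genes were above 0. Genes of 1 list may move together, so this count of signs is no test. Thrombocyte markers (22) and integrins (25) had 0 changed entries as well.

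**Figure D3:**
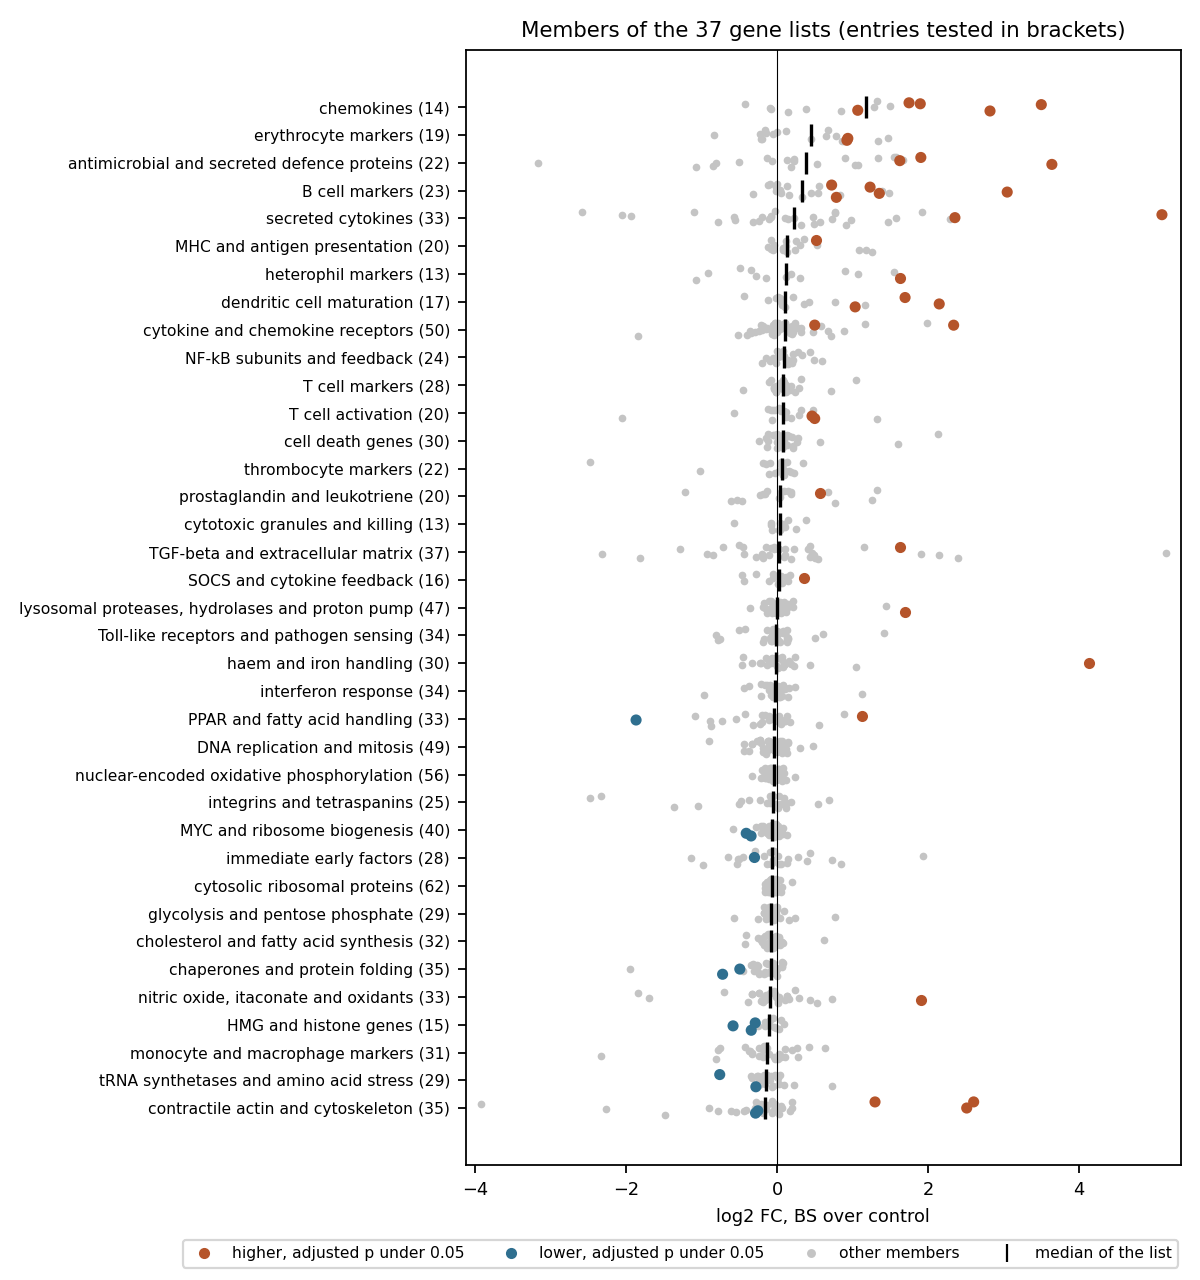
Log2 FC of BS over control of each tested member of the 37 gene lists, ordered by the median of the list (black bar), with changed genes in orange (higher) and blue (lower). The chemokine list has the highest median, 1.18, followed by the erythrocyte list with 0.46 and the antimicrobial list with 0.38.

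Taken bird by bird, the median log2 ratio of the 62 genes that rose was 1.16, 0.78, 1.3, 0.86, 1.15 and 0.91 in birds 1 to 6. For the 31 genes that fell it was -0.46, -0.39, -0.35, -0.38, -0.38 and -0.37. These genes were chosen by the same comparison, so the values describe how evenly the birds contributed and test nothing. Between 59 and 62 of the 62 genes were above 0 in each bird, and between 29 and 31 of the 31 were below 0. Birds 2 and 4 had the smallest median increases. Across tested genes that averaged 10 or more normalized counts the medians of the birds lay between -0.014 and 0.015.

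**Figure D4:**
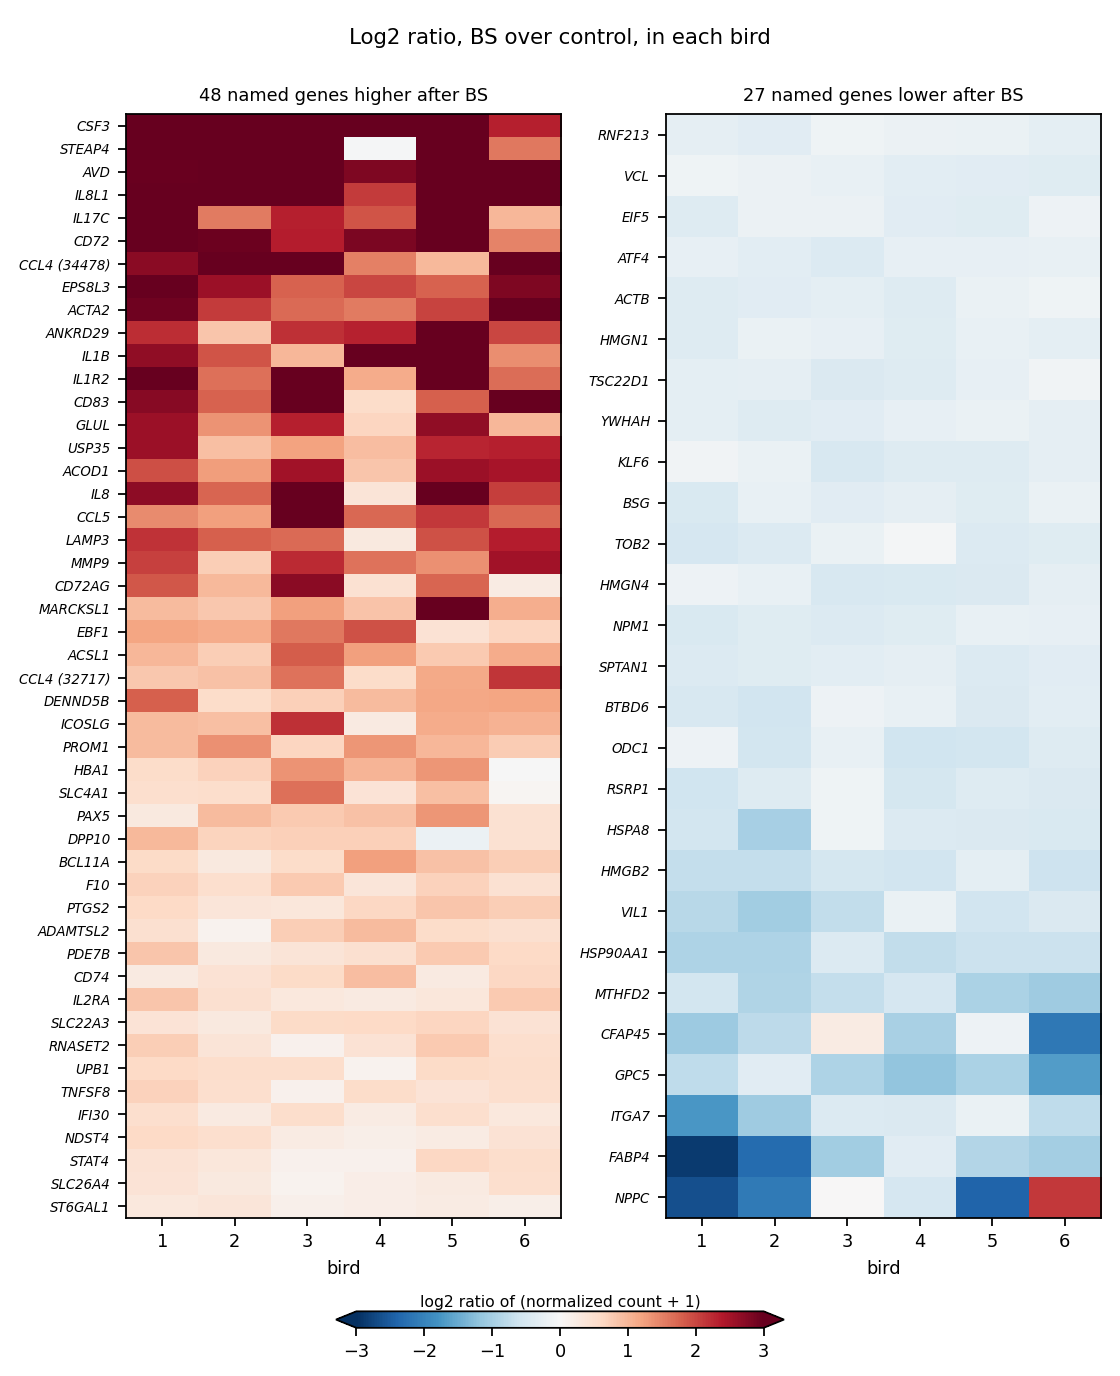
Log2 ratio of normalized counts plus 1, BS over control, in each of the 6 birds for the changed genes that have a symbol, with red for higher and blue for lower with BS and colours saturated at 3. Most rows keep 1 colour over all birds, and bird 4 is pale for IL8, LAMP3 and STEAP4.

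To see where BS differed from the other treatments, BS was compared with each in a fit of its own with the bird as a block. Between BS and BV 0 of 19174 genes passed (0%), with 816 at an unadjusted p under 0.05, and DESeq2 also called 0 genes, with 457 at an unadjusted p under 0.05. Of the 93 genes changed with BS, 7 that rose and 8 that fell had an unadjusted p under 0.05 in this direct comparison, and the lowest adjusted p was 0.944. The log2 FC of BS over BV was between -0.54 and 0.73 for the 62 genes that rose and between -1.32 and 0.15 for the 31 that fell. Such p-values do not show that the strains act alike. In birds 3 to 6 alone, 64 genes differed between BS and BV, beside 0 with all 6 birds. That fit leaves out birds 1 and 2, and the reason for the different counts was not tested. How many of the 93 genes are among the 64 was not examined. Set against the same control libraries, which both comparisons share, BV gave 50 of the 62 genes higher and 24 of the 31 genes lower, beside 195 genes (1.01%) in all. Those without a call for BV included IL8 (log2 FC 1.94, adjusted p = 0.149), FABP4 (-1.45, edgeR adjusted p = 0.196), NPPC (-0.56, edgeR adjusted p = 0.594) and HSPA8 (-0.33, edgeR adjusted p = 0.0771).

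Against conA the difference was broad, with 1490 of 19061 genes (7.82%) past the test, 649 higher with BS (3.4%) and 841 lower (4.41%). The conA libraries of birds 3 to 6 are numbered apart from their BS and control libraries, so that whatever these numbers mark and the treatment cannot be told apart in these birds. Of the 62 genes that rose with BS, 22 were higher with BS than with conA and 5 were lower, and of the 31 that fell, 0 were higher and 13 were lower. The members were chosen by their BS values, which this comparison uses again, so the shares describe them only. CCL5 averaged 225 ± 175 normalized counts with BS and 83 ± 94.8 with conA, beside 69.1 ± 72.6 in the control (SD, n = 6 each; BS over conA, log2 FC 1.55, adjusted p = 0.000447). ACOD1 averaged 104 ± 72.1 with BS and 30.1 ± 25.8 with conA, beside 27 ± 20.7 in the control (log2 FC 1.77, adjusted p = 0.000924). IL8 averaged 164 ± 85.8 with BS and 35.5 ± 27.6 with conA, beside 41.9 ± 35.3 in the control (log2 FC 2.18, adjusted p = 0.000394). For these inflammatory genes the conA means lay within 1 SD of the control means.

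For CD83 and MARCKSL1 the order was the reverse. CD83 averaged 120.4 ± 85.7 with BS and 776 ± 301 with conA, beside 26.3 ± 18 in the control (log2 FC -2.82, adjusted p = 0.0132). MARCKSL1 averaged 102 ± 40.1 with BS and 455 ± 199 with conA, beside 39.7 ± 18.5 in the control (log2 FC -2.14, adjusted p = 0.00272). NPM1, HSPA8 and MTHFD2 fell with BS and rose with conA against the shared control, where conA changed 1273 genes (6.6%). NPM1 averaged 7457 ± 569 with BS and 19887 ± 4222 with conA, beside 9453 ± 599.5 in the control (BS over conA, log2 FC -1.40, adjusted p = 6.25e-07). HSPA8 averaged 3028 ± 510.1 with BS and 8922 ± 2012 with conA, beside 4261 ± 709.5 in the control (log2 FC -1.55, adjusted p = 5.55e-07). MTHFD2 had a log2 FC of -1.42 between BS and conA (adjusted p = 0.00459). PAX5 and EBF1, which rose with BS, had a log2 FC of 0.65 and 0.58 over conA and did not pass (adjusted p = 0.206 and 0.373).

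**Figure D5:**
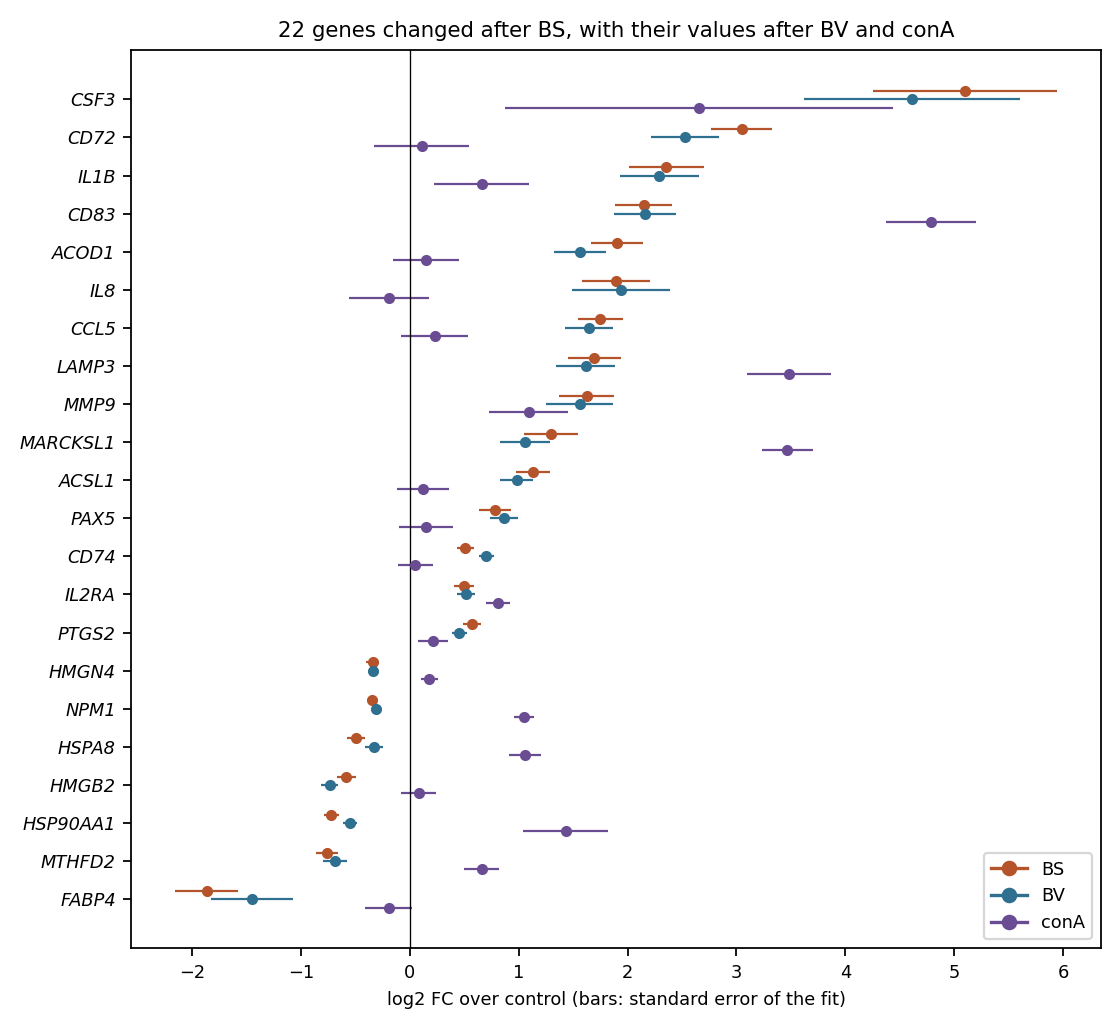
Log2 FC over the shared control of 22 genes changed with BS, for BS (orange), BV (blue) and conA (purple). Bars are standard errors derived from the F statistic of each test. The BS and BV points lie near each other, while conA lies near 0 for IL8, CCL5 and ACOD1, above both for CD83, LAMP3 and MARCKSL1, and on the other side of 0 for NPM1, HSPA8, HSP90AA1 and MTHFD2.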

How the data were processed

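Total RNA libraries were sequenced in pairs of 100 bases. The authors used bcl2fastq 2.20, FastQC 0.11.5, STAR 2.7.3 with the chicken assembly GRCg6a, and DESeq2 1.24.0 in R 3.6.1. Which tool counted the reads, and on which annotation, is not stated in what was read here. The authors deposited raw counts per gene, used for the tests, and a signal table of counts divided by DESeq2 size factors, the normalized counts printed per library. Totals were 12170873 to 30040702 counts with BS and 20189066 to 29764271 in the control, and counting intervals cover counting error only.

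Groups came from the treatment labels and pairs from the biological replicate number, which marks the bird. Over 13040 genes, deviations from the group means correlated between libraries of the same bird at 0.391 to 0.860, and 6 of 6 libraries matched best with their own bird. Genes with at least 2 reads over the 12 libraries (19424 of 23910) were tested with edgeR 4.0.16 (TMM, robust quasi-likelihood fit, bird as block) in R 4.3.3 with limma 3.58.1, and adjusted by the Benjamini-Hochberg method. The globin and actin sums and the library measures were compared by exact paired permutation tests in Python 3.11.15 with scipy 1.17.1. The p-values of the sums are not adjusted. Scripts were tested on simulated data.

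Named genes were drawn from the 20 with a symbol per direction with the largest change, among those changed in 1 direction in 6 of 6 birds at a mean of at least 10 normalized counts, up to 5 per direction without a symbol, the 15 with the lowest adjusted p, and the 4 members of each list with the lowest adjusted p. Not all of these are described, and ENSGALG00000006165 (log2 FC 0.74, edgeR adjusted p = 0.000413) is among those left out. IL17C, F10, IFI30, PROM1, DPP10, ADAMTSL2, SLC22A3, RNASET2, UPB1, ANKRD29, NDST4, SLC26A4, ST6GAL1, DENND5B, RNF213, VCL, EIF5, CFAP45, NPPC and ENSGALG00000047627 lie outside this rule and were named after their values were seen, as was EPB41. CD79B also lies outside this rule and was taken from the defining markers of cell types. The comparison, its members and the lists were chosen with earlier results of these data known. Alternatives were DESeq2 1.42.0, RLE scaling, other filters, 18 libraries in 1 fit, no bird term, each bird left out, and birds 3 to 6 alone.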

Additional observations from a re-analysis of the deposited data

Results flagged for a closer look

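In 103 checks of 6 values each, 9 had a highest or lowest value that stood apart from the other birds beyond Dixon's 95% limit, and chance gives about 1 in 20. Of the log2 ratios of BS over control, CCL5 was 4.15 in bird 3, against 1.22 to 2.12 in the other birds, and MARCKSL1 was 3.39 in bird 5, against 0.81 to 1.2. Bird 4 stood apart for 4 genes. Its log2 ratio was 0.30 for LAMP3 (1.71 to 2.35 in the others), 1.05 for ENSGALG00000045596 (1.89 to 2.36), 0.12 for UPB1 (0.52 to 0.61) and, above the others, 0.62 for ENSGALG00000047627 (0.28 to 0.40). The BS library of bird 5, which had the lowest total, had 14539 genes detected, against 16111 to 16702 in the other BS libraries. The mitochondrial share of bird 3 was high in both groups, at 1.18% with BS (0.678% to 0.841% in the other birds) and 1.18% in the control (0.689% to 0.826%).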

How the results depend on the processing

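The count of changed genes depended on the model and on single birds. All 93 genes kept their direction in all fits that held them. These fits use the same libraries that the genes were chosen from, so the kept direction is no further test. Without the replicate block, 0 genes passed (0 higher, 0 lower, 0 past 1.5 on the log2 scale) and 610 passed in BS against conA. The stricter filter filterByExpr gave 57 genes (40 higher, 17 lower), of the 86 changed genes it held. With BV added, 18 libraries in 1 fit gave 212 genes (132 higher, 80 lower, 37 past 1.5), and DESeq2 gave 49 lower genes. Birds 3 to 6 alone gave 43 genes (33 higher, 10 lower, 14 past 1.5), 64 in BS against BV, and 803 in BS against conA. Leaving out 1 bird gave 54 to 95 changed genes, 39 to 64 higher, 11 to 31 lower, 16 to 25 past 1.5, and 887 to 1654 in BS against conA, with the fewest changed genes, 54 each, without bird 1 or bird 2. RLE scaling gave 94 genes, all 93 among them. The causes of these shifts were not tested, apart from fewer genes or fewer birds where the setting itself removes them. The exact test of the globin share had p = 0.262 when unpaired. Depth limits the genes with few reads, such as CSF3, STEAP4 and IL17C.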
